A study of Mus musculus with 6 samples.

Results

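The guanylate-binding proteins (GBPs) and the immunity-related GTPases (IRGs) are 2 families of enzymes that hydrolyse GTP and that cells make in response to interferon-gamma. The genes described here are 6 GBP genes (Gbp2, Gbp3, Gbp4, Gbp6, Gbp7 and Gbp9) and 4 IRG genes (Irgm1, Irgm2, Igtp and Iigp1). They were chosen by name from a table of 24421 mouse genes, with earlier results of these data known. All 10 were in the table, and all 10 passed the filter on low counts and were among the 13411 genes tested.

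Interferon-gamma binds a receptor of the chains IFNGR1 and IFNGR2, and the kinases JAK1 and JAK2 on that receptor then pass the signal on to gamma-activated sites in promoters. One gene induced in this way is Irf1, whose product binds interferon-stimulated response elements. GBPs assemble in large coats on bacteria and on the vacuoles of parasites, and effector IRGs break up such vacuoles, while the IRGM proteins restrain the effector IRGs on the membranes of the cell itself. In blood formation Irgm1 is known as a gene that keeps stem cells functional under interferon-gamma.

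RNA was sequenced from Lin-CD117+ cells sorted from the bone marrow of CByB6F1 mice, the first-generation cross of BALB/c and C57BL/6 strains. Lin-CD117+ cells lack the surface antigens of mature blood lineages and carry the KIT receptor, so that the fraction is rich in stem cells and early progenitors of blood. Of the 6 libraries 3 were pools from untreated mice (pools 1 to 3) and 3 were pools from mice treated with ruxolitinib (RUX, pools 4 to 6), a drug inhibitor of JAK1 and JAK2. All mice were labelled female and 2 to 5 months old, and each pool joined cells of 2 to 3 mice of 1 group. The labels and file headers name no dose, route or length of treatment. No mouse is labelled as infected or given interferon.

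The libraries held 27354768 to 48747137 counted read pairs, and the 3 untreated ones were the shallower. Progenitor genes marked the sort as labelled: Kit measured 196 to 471 CPM (counts per 1000000 counts of the library, scaled between libraries by TMM, a method that centres most genes on no change) and Cd34 362 to 529 CPM. Lineage transcripts were not all absent. The T cell gene Cd3e was at 0.0992 to 0.538 CPM and the myeloid integrin gene Itgam at 10.9 to 17.1 CPM. The globin genes Hba-a1 and Hbb-bt held 0 counts in every pool, for a reason that was not tested. Erythroid transcripts were present all the same: the 8 erythroid markers, these 2 included, summed to 5160 to 7450 CPM. In such bulk libraries fewer cells of a type and less RNA per cell cannot be told apart.

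Promoter stretches with the letters that interferon-driven factors read are shown first. They describe the reference sequence, and dependence of these genes on JAK1 or JAK2 was not tested. RefSeq windows (build GRCm38.p6) of the 250 bases before the start site were at hand for 6 of the 10 genes, namely Gbp2, Gbp3, Gbp7, Irgm1, Irgm2 and Igtp. The core of the interferon-stimulated response element is GAAA followed after any 2 bases by a second GAAA, on either strand. Each of these 6 genes held it in at least 1 window, and 2.98% of all 32851 such windows hold it. Gbp3 had a second window, chr3:142560106-142560355, without a match. The windows of Gbp2, Gbp3 and Irgm1 overlapped annotated exons of the same gene. Stretches of 30 bases around the matches follow, on the strand of the gene, with the matched letters in capitals.
Gbp2, chr3:142620594-142620623, + strand: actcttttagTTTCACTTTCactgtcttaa
Gbp3, chr3:142559992-142560021, + strand: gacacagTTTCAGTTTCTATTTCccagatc
Gbp7, chr3:142530273-142530302, + strand: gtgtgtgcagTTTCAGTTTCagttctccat
Irgm1, chr11:48871428-48871457, - strand: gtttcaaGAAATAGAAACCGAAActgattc
Irgm2, chr11:58214903-58214932, + strand: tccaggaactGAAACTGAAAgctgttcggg
Igtp, chr11:58199512-58199541, + strand: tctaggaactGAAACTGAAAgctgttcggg

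In the 3 GBP genes the element reads on the strand opposite to the gene (TTTC, 2 bases, TTTC as printed), and in the 3 IRG genes on the strand of the gene. Gbp3 and Irgm1 each held 2 overlapping matches. By RefSeq start sites the nearest match was that of Irgm1, 15 to 30 bases before its start at 48871420. On the deposited coordinates Irgm1 starts at 48871346, further from its match. The core of the gamma-activated site, TTCNNNGAA, which reads the same on both strands, was in 3 of the 6 genes (Gbp7, Irgm2 and Igtp) and in 7.02% of all windows. Both cores stood together in 0.332% of all windows. Relatives held the cores too: of 10 relatives with a window, 5 held the response element core and 4 the gamma-activated core. A match describes letters in this window and is not a measured binding site.

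Igtp and Irgm2, neighbours on chromosome 11 with 7.38 kb between them, carried the gamma-activated core 2 bases ahead of the response element in nearly the same setting. The relatives Tgtp1 and Tgtp2 had the same spacing. The whole windows of Igtp and Irgm2 are printed to show this arrangement, and that of Gbp7 because it holds both cores further apart, the element on the opposite strand, with the cores in capitals. Igtp and Irgm2 share an identical run of 55 bases further from the start site.
Igtp, chr11:58199306-58199555, + strand: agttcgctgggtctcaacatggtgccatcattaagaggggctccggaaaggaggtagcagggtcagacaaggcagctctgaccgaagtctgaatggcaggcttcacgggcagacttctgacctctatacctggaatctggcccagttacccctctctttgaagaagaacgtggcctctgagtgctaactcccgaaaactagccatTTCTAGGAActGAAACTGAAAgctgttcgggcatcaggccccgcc
Irgm2, chr11:58214727-58214976, + strand: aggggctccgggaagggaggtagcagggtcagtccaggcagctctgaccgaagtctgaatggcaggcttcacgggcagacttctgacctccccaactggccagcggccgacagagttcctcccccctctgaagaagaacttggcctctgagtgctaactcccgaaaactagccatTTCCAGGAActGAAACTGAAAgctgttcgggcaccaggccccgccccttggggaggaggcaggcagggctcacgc
Gbp7, chr3:142530086-142530335, + strand: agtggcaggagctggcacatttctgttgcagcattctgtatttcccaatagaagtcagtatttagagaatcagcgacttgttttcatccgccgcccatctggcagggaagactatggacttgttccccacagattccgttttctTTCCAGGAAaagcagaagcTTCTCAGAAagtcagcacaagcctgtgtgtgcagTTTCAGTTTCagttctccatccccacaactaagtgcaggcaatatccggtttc

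The 10 genes were present in these progenitors at very different levels, and the order of levels was nearly the same in every pool. Per length, in CPM per kilobase of exon, Irgm1 led at 39.8 over the 6 pools and Gbp6 came last at 0.217, a ratio of 184. Between them stood Gbp3 (16.7 CPM per kilobase), Igtp (14.0), Gbp7 (10.5), Gbp2 (7.89), Irgm2 (3.21), Iigp1 (2.33), Gbp9 (0.452) and Gbp4 (0.289). Of the 9 pairs of neighbours in this order, 6 kept it in all 6 pools. Gbp3 exceeded Igtp in 5 pools, Gbp9 exceeded Gbp4 in 5, and Gbp4 exceeded Gbp6 in 3, so the levels of the last pair cannot be ordered beyond their spread.

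**Figure D1:**
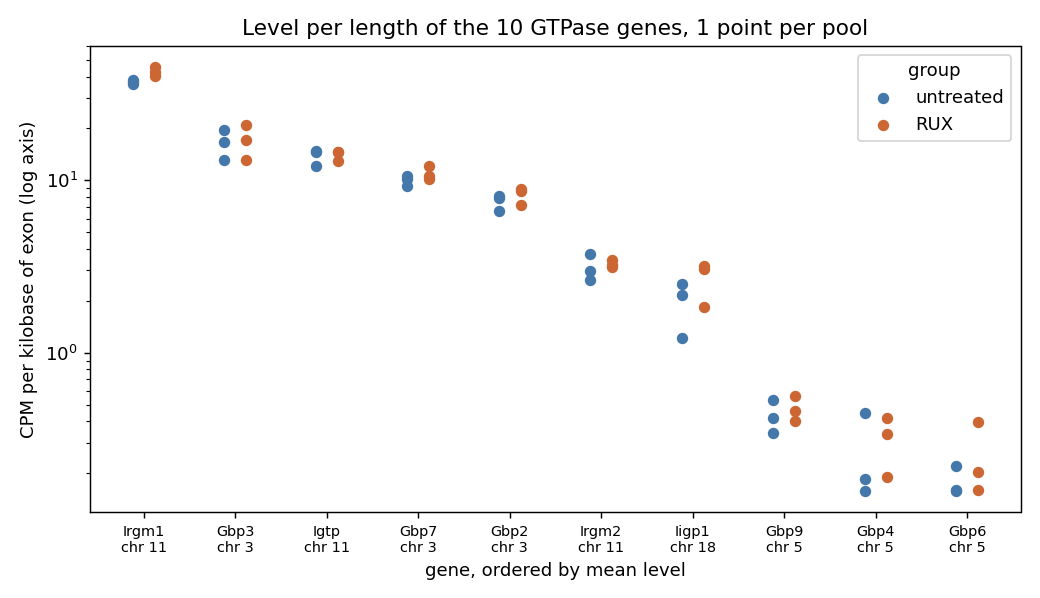
Level per length of each gene on a log axis (CPM per kilobase of exon), 1 point per pool, with untreated and RUX pools in separate colours and the chromosome under each name. The 3 chromosome 5 genes lie at or below 0.564 CPM per kilobase in every pool and the other 7 at or above 1.22.

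By chromosome, the summed level of the 10 genes was uneven. The chromosome 3 genes (Gbp7, Gbp3 and Gbp2, in mm10 from 142530336 to 142638008) gave 34.0% to 39.4% of the summed level per length of the 10 genes, and the chromosome 11 genes (Irgm1 at 48865249 to 48871346, Igtp and Irgm2 at 58199556 to 58222783) gave 56.9% to 63.0%. The chromosome 5 cluster (Gbp9, Gbp4 and Gbp6, 105078394 to 105293699) gave 0.806% to 1.32%. Iigp1 on chromosome 18 gave 1.34% to 3.08%. Gbp6 is the least certain of these levels, because 49.9% of the 50-base windows of its annotated transcripts also occur in genes at other positions, mainly Gbp10. For the other 9 genes that share was 0% to 6.54%.

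The main comparison asks whether these interferon-gamma targets differ between mice given a JAK1 and JAK2 inhibitor and untreated mice. No member passed the test. All 10 had a positive log2 fold change (RUX minus untreated), from 0.02 for Igtp to 0.51 for Gbp6, with a median of 0.14, a fold of 1.10. Of all 13411 tested genes 49.2% had a positive value, and their median was −0.0036. By edgeR's quasi-likelihood test with Benjamini-Hochberg adjustment over all tested genes 0 members and 0 genes in all were called, a background of 0.0%, and the adjusted p of each member was 1. DESeq2 and limma-voom also called 0 genes, and limma-voom with quality weights called 1, not a member. At an unadjusted p under 0.05 edgeR counted 254 genes (1.89%), DESeq2 281, limma-voom 262 and limma-voom with quality weights 778. None of the 10 was among edgeR's in this main test, the smallest unadjusted p being 0.126. The RUX and untreated values of 1 member, Irgm1, did not overlap, where 2.99% of all tested genes had 3 RUX pools above 3 untreated ones.

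**Figure D2:**
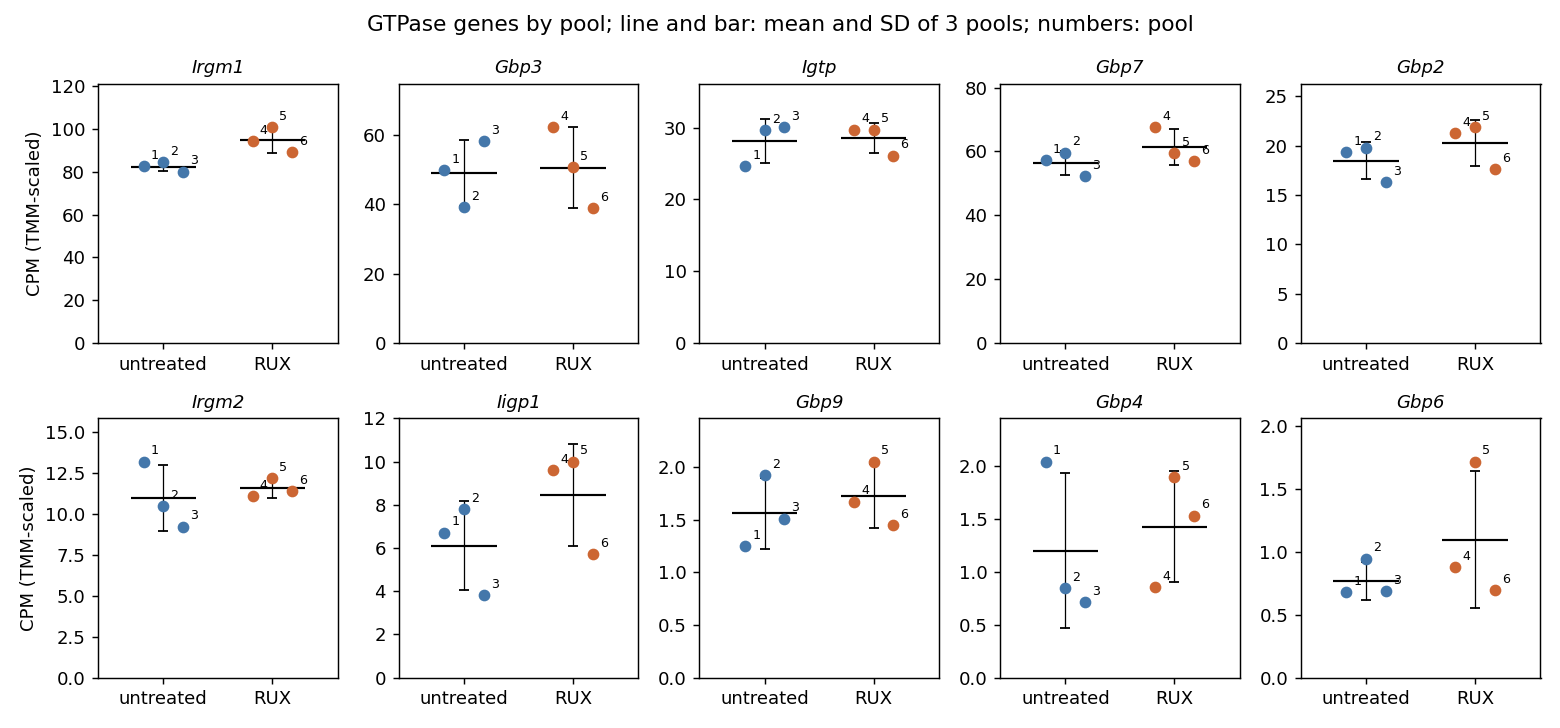
CPM of each gene in each pool (numbers give the pool), untreated on the left and RUX on the right of each panel, with the mean and SD of 3 pools; each vertical axis starts at 0. Irgm1 is the 1 panel in which the groups do not overlap.

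Irgm1, the regulator that guards the membranes of the cell itself and the most abundant member, measured 82.6, 84.5 and 80.1 CPM in untreated pools 1 to 3 and 94.2, 101 and 89.3 CPM under RUX 4 to 6. The lowest RUX pool lay above the highest untreated pool, and the untreated pools varied little among themselves (a coefficient of variation of 2.68%). The log2 fold change was 0.20 ± 0.13 (SE; 3 pools a group), a fold of 1.15 with a 95% interval of 0.942 to 1.4 (edgeR unadjusted p = 0.156). With any 1 pool left out the log2 fold change ran from 0.16 to 0.24.

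Igtp and Irgm2 encode the other 2 IRGM regulators. Igtp measured 24.6, 29.6 and 30.1 CPM in the untreated pools and 29.7, 29.7 and 26.1 CPM under RUX. Its values overlapped throughout and the highest was an untreated pool, with a log2 fold change of 0.02 ± 0.15 (SE). Irgm2 measured 13.2, 10.5 and 9.23 CPM in the untreated pools and 11.1, 12.2 and 11.4 CPM under RUX. The RUX pools lay inside the range of the untreated ones, with a log2 fold change of 0.08 ± 0.19 (SE). Both genes changed sign when single pools were left out: Igtp was at −0.07 without untreated pool 1, −0.01 without RUX pool 4 and −0.01 without RUX pool 5, and Irgm2 at −0.03 without untreated pool 3.

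Iigp1 is the effector IRG of the set, a GTPase that loads onto parasite vacuoles and ruptures them. It measured 6.71, 7.81 and 3.82 CPM in the untreated pools and 9.61, 10 and 5.73 CPM under RUX. RUX pools 4 and 5 were the highest of the 6, while RUX pool 6 lay below untreated pools 1 and 2. Its log2 fold change was 0.47 ± 0.29 (SE), a fold of 1.38 with a 95% interval of 0.902 to 2.13 (edgeR unadjusted p = 0.126), and 0.22 to 0.70 with 1 pool left out. The interval includes both no change and a doubling. The unadjusted edgeR p of Iigp1 was 0.048 without a low-count filter, 0.0491 without untreated pool 2 and 0.0298 without RUX pool 6. It passed the adjusted threshold in no setting.

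Of the chromosome 3 GBPs, Gbp2 encodes a lipid-anchored coat protein and Gbp7 a protein linked to the oxidative burst of phagocytes. Gbp2 measured 19.3, 19.8 and 16.3 CPM in the untreated pools and 21.3, 21.9 and 17.6 CPM under RUX. RUX pools 4 and 5 lay above all untreated pools and RUX pool 6 did not, with a log2 fold change of 0.14 ± 0.17 (SE). Gbp7 measured 57.3, 59.6 and 52.3 CPM in the untreated pools and 67.7, 59.5 and 56.9 CPM under RUX. RUX pool 4 alone exceeded every untreated pool, and the log2 fold change was 0.12 ± 0.14 (SE). With 1 pool left out these values ran from 0.05 to 0.23 for Gbp2 and from 0.05 to 0.17 for Gbp7.

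Gbp3, the most abundant GBP of the set per length, varied more within the groups than between them. It measured 49.8, 39.1 and 58.1 CPM in the untreated pools and 62.3, 50.6 and 38.8 CPM under RUX, so that a RUX pool was both the highest and the lowest. Its log2 fold change was 0.05 ± 0.19 (SE), −0.08 without untreated pool 2 and −0.12 without RUX pool 4. For these 3 genes the 95% intervals of the fold ended at 1.41 for Gbp2, 1.35 for Gbp7 and 1.38 for Gbp3.

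The chromosome 5 GBPs were counted thinly, and their log2 fold changes had the widest 95% intervals of the set. Gbp9 held 35 to 75 read pairs in untreated and 72 to 100 in the deeper RUX libraries, that is 1.25, 1.92 and 1.51 CPM against 1.67, 2.05 and 1.45 CPM. The groups overlapped, with a log2 fold change of 0.14 ± 0.34 (SE), and −0.01 without RUX pool 5. Gbp4 measured 2.04, 0.845 and 0.714 CPM in the untreated pools and 0.857, 1.89 and 1.53 CPM under RUX. Its highest value was untreated pool 1, and the log2 fold change of 0.27 ± 0.47 (SE) had a 95% interval of the fold of 0.601 to 2.42. It was 0.87 without untreated pool 1, 0.0045 without untreated pool 3 and 0.01 without RUX pool 5. Gbp6 measured 0.679, 0.947 and 0.687 CPM in the untreated pools and 0.88, 1.72 and 0.694 CPM under RUX. RUX pool 5 alone stood apart, with 84 read pairs where the other 5 pools held 19 to 38. The log2 fold change of Gbp6 was 0.51 ± 0.46 (SE), and 0.02 without RUX pool 5.

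Summed over the 10 genes the untreated pools were almost equal and the RUX pools were not. The sum was 257, 255 and 253 CPM in the untreated pools and 299, 290 and 250 CPM under RUX. RUX pools 4 and 5 lay above and RUX pool 6 below every untreated pool. The 6 GBP genes summed to 127 ± 4.50 CPM (mean ± SD, n = 3) in untreated and 136 ± 18.9 CPM under RUX, and the 4 IRG genes to 128 ± 4.65 and 143 ± 10 CPM.

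The positive median rested on RUX pool 5 more than on any other pool. This pool was the highest of the 6 for 5 of the 10 genes, where it was the highest for 9.78% of all tested genes, and it lay above the 6-pool mean for all 10. Untreated pool 3 was the lowest for 6 of the 10 genes and for 21.6% of all tested genes. Without RUX pool 5 the median log2 fold change was 0.04 with 8 of 10 positive, without untreated pool 3 it was 0.09 with 9 of 10 positive, and without RUX pool 6 it was 0.22 with 10 of 10 positive.

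**Figure D3:**
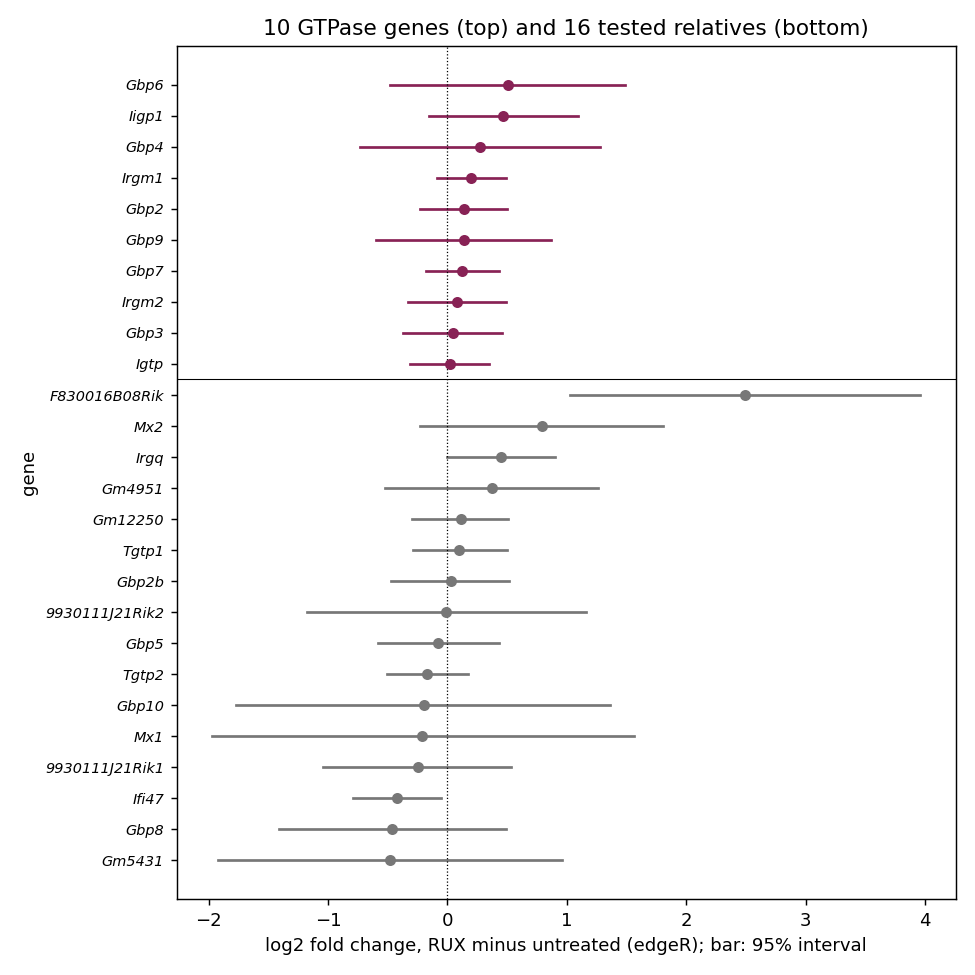
Log2 fold change (RUX minus untreated, edgeR) with its 95% interval for the 10 genes, above the line, and for 16 tested relatives, below it. All 10 upper points lie right of 0 and all 10 intervals cover it; the lower points fall on both sides.

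Other GTPases of the same families and their relatives, Mx1 and Mx2 included, had values on both sides of 0. Their difference from the 10 genes was not tested. Of 19 relatives found by symbol, 16 were tested, 0 were called in either direction, 7 had positive and 9 negative log2 fold changes, and the median was −0.04. Ifi47, an IRG on chromosome 11 (49076587 to 49096987), was more abundant per length than any of the 10 genes, with 69.0 CPM per kilobase in untreated pools. It measured 176, 115 and 127 CPM in the untreated pools and 108, 112 and 91.5 CPM under RUX with every RUX pool the lower, and the log2 fold change was −0.42 ± 0.17 (SE, with an edgeR adjusted p = 1). Irgm1, on the same chromosome, had groups apart in the opposite direction. Of 13411 tested genes 3.25% had 3 RUX pools below 3 untreated ones. Without untreated pool 1 the log2 fold change of Ifi47 was −0.22.

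A pair of lesser-known genes of the chromosome 18 group next to Iigp1 also had positive values. F830016B08Rik held 2, 10 and 1 read pairs in untreated and 24, 39 and 38 in RUX pools, or 0.0714, 0.256 and 0.0275 against 0.556, 0.8 and 0.754 CPM. Untreated pools 1 and 3 lay under the floor of 3 read pairs. The groups did not overlap, where 2.99% of all tested genes had 3 RUX pools above 3 untreated ones. The fitted log2 fold change of 2.49 ± 0.68 (SE) had an unadjusted p of 0.00273 and an adjusted p of 1 in edgeR's test. Gm4951 measured 0.643 to 1.07 CPM in the untreated pools and 0.813 to 1.44 CPM under RUX with a log2 fold change of 0.37. Irgq, a distant relative of the IRGs, measured 11.5 ± 1.95 CPM in the untreated pools and 15.6 ± 3.35 CPM under RUX (mean ± SD, n = 3) with overlap. Among GBP relatives Gbp5, Gbp2b and Gbp8 had log2 fold changes of −0.08, 0.03 and −0.46. Gm4951 and these 3 were chosen after their values were seen. The near-copies Tgtp1 and Tgtp2, which share 79.4% and 86.6% of their 50-base windows with other genes, are uncertain.

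The signalling chain that leads to these promoters was close in both groups at the receptor and at Irf1. Ifngr1 measured 337 ± 27.4 CPM in the untreated pools and 305 ± 9.43 CPM under RUX (mean ± SD, n = 3), and Ifngr2 41.4 ± 3.06 and 42.1 ± 6.72 CPM. Irf1 measured 40.6 ± 4.87 and 40.4 ± 4.29 CPM, so that the log2 fold change was −0.01 with a 95% interval of −0.34 to 0.33. Jak1 and Jak2, whose proteins RUX inhibits, had log2 fold changes of 0.01 and −0.17. Irf1 lay so near 0 that its sign depended on the setting.

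Of the 14 genes of this chain 7 had positive and 7 negative values, and 0 were called. The smallest unadjusted p belonged to Irf8, a factor of monocyte and dendritic lineages (281 ± 63.1 and 209 ± 32.2 CPM). Next came Socs1, the feedback inhibitor of JAK kinases (1.4 ± 0.528 and 2.37 ± 1.03 CPM), and Usp18, a brake on the type I interferon receptor (12.7 ± 1.91 and 15.9 ± 1.49 CPM). All 3 overlapped between the groups and had an edgeR adjusted p of 1.

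Interferon-gamma targets outside the GTPase families had a median near 0, and type I interferon targets one above that of the 10 genes. Of 21 tested interferon-gamma targets, mostly genes of antigen presentation, 12 were positive and 9 negative with a median of 0.04, and 0 were called. Parp14, an ADP-ribosyltransferase, had the smallest unadjusted p (12.9 ± 1.32 and 19.4 ± 3.72 CPM, without overlap); Nlrc5, the activator of MHC class I genes, and the chemokine gene Cxcl10 followed at log2 fold changes of −0.30 and −0.88. Of 24 tested type I targets 22 were positive and 2 negative with a median of 0.28, where 49.2% of all tested genes were positive. RUX pools lay all above untreated ones for 5 of them, as for 2.99% of all tested genes, and 0 were called. This list was chosen with earlier results of these data known. The antiviral genes Oasl2 and Oas3 stood at log2 fold changes of 0.71 and 0.69 and Rtp4 at 0.50. Whether these lists differ from the 10 genes was not tested.

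Transcripts of the interferons themselves were at or near the detection floor of 3 read pairs. Ifng held 6 read pairs in RUX pool 4 and 0 in the other 5 pools, where 0 allows up to 0.0595 to 0.107 CPM. Ifnb1 held 2 read pairs in RUX pool 6 and Ifna4 held 4 in RUX pool 5, and both were at 0 elsewhere. These limits cover counting error only. Il12a, which encodes a subunit of the cytokine IL-12, measured 39.8 ± 3.33 CPM in the untreated pools and 30.2 ± 4.33 CPM under RUX (mean ± SD, n = 3). Every RUX pool was the lower, as for 3.25% of all tested genes. Its log2 fold change was −0.40 ± 0.16 (SE, with an edgeR adjusted p = 1). Il18, the other of the 2 tested genes of this list, had a log2 fold change of 0.14.

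Genes that work with these GTPases did not pass the test either. Of 10 autophagy conjugation genes, whose products guide IRGs and GBPs to membranes, 3 were positive and 7 negative with a median of −0.06; Atg7, Atg12 and Gabarapl2 had log2 fold changes of 0.21, −0.23 and −0.17. Of 10 inflammasome and ubiquitin partners 2 were positive and 8 negative with a median of −0.15. Aim2, a sensor of cytosolic DNA, measured 19.8 ± 4.39 and 15.1 ± 2.32 CPM, and Pycard, the inflammasome adaptor, and Tax1bp1, an autophagy receptor, had log2 fold changes of −0.35 and −0.22. In each of these lists 0 genes were called.

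The pools differed in cell type markers, and the 10 genes ranked the pools as those of progenitors did. Mean deviations of log2(CPM + 1) from the 6-pool mean were −0.01, −0.03 and −0.18 in untreated pools 1 to 3 and 0.10, 0.22 and −0.09 in RUX pools 4 to 6 for the 10 genes. For the 10 progenitor markers they were 0.04, 0.03 and −0.21 and then 0.11, 0.14 and −0.11, which puts the 6 pools in the same order. The 10 progenitor markers summed to 1860 to 2440 CPM in the untreated pools and 2060 to 2370 CPM under RUX, with 0 of them at 0. For 9 tested stem cell markers the deviation was −0.38 in untreated pool 3 and 0.01 to 0.16 in the other pools, highest in RUX pool 5. Type I interferon targets were likewise highest in RUX pool 5, at 0.3, and lowest in untreated pool 3, at −0.17.

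Markers of several mature cells differed in sign from the 10 genes (−0.18) in untreated pool 3. Mean deviations there were 0.44 for monocyte, macrophage and dendritic markers, 1.27 for neutrophil markers and 0.19 for T and NK markers. Erythroid and B cell markers were at −0.17 and −0.02 there. In untreated pools 1 and 2 the first list was at −0.07 and −0.37, neutrophil markers at −1.86 and 1.15, and T and NK markers at 0.07 and −0.21. The 10 genes were at −0.01 and −0.03. In RUX pools 4 to 6 the mean deviations of these lists, except erythroid and B cell markers, had the same signs as those of the 10 genes. They were 0.15, 0.08 and −0.23 for monocyte, macrophage and dendritic markers, and 0.5, 0.06 and −1.12 for neutrophil markers. For T and NK markers they were 0.11, 0.11 and −0.27. Erythroid markers went the other way, at −0.27, −0.07 and 0.44, and B cell markers were at −0.05, 0.19 and −0.35. Monocyte, macrophage and dendritic markers summed to 524 to 1050 CPM in the untreated pools and 412 to 753 CPM under RUX, highest in untreated pool 3, where the mean deviation of the 10 genes was lowest. The macrophage gene C1qa held at most 12 read pairs in any pool, and 0 in untreated pool 2 and RUX pool 5. Neutrophil markers summed to 170 to 2310 CPM in the untreated pools and 352 to 1460 CPM under RUX, and T and NK markers to 234 to 415 and 253 to 454 CPM. The part of cell makeup in the values of the 10 genes was not tested.

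**Figure D4:**
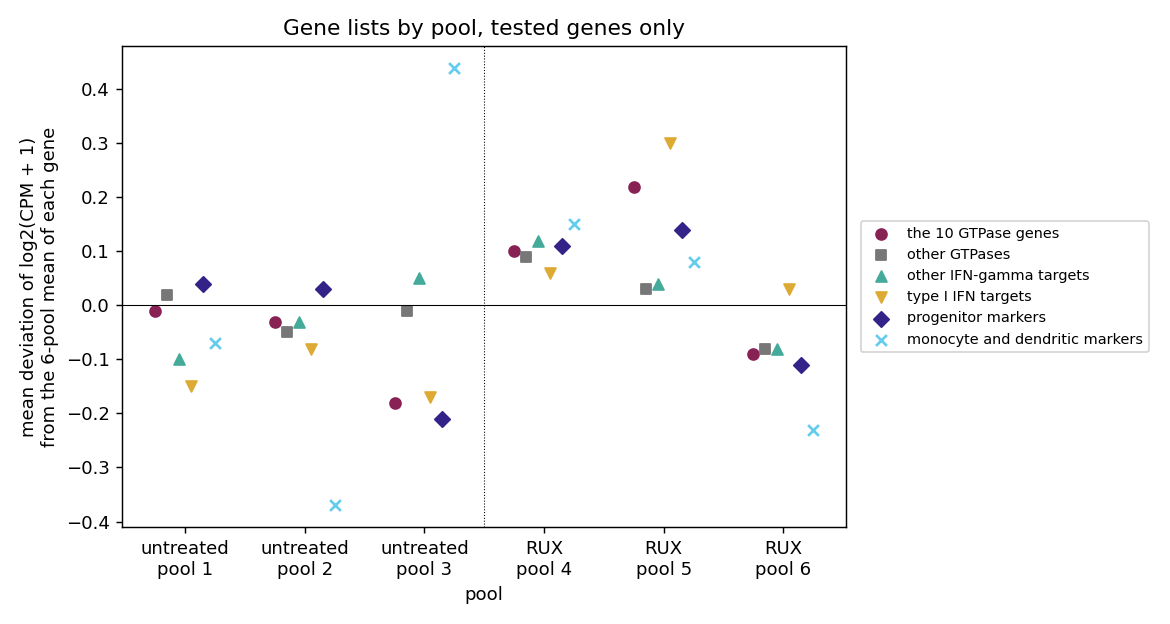
Mean deviation of log2(CPM + 1) from each gene's 6-pool mean, by pool, for the 10 GTPase genes, 3 interferon-linked lists and 2 marker lists (tested genes only). The 10 GTPase genes are highest in RUX pool 5 at 0.22 and lowest in untreated pool 3 at −0.18. So are the progenitor markers, at 0.14 and −0.21, and the type I interferon targets, at 0.3 and −0.17.

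The genes whose values across the 6 pools were most like the mean of the 10 were Mfge8, Rnf114, Calhm2, Ctsf and Rnf135. They were picked for the highest Pearson r among 9531 genes of at least 5 CPM, with r of 0.971, 0.968, 0.967, 0.962 and 0.961 and Spearman's rho of 0.943 to 1.00 over 6 pools. Of the 9531 genes 37 had an r above 0.9, or 0.388%. Mfge8, which encodes a secreted bridge between dying cells and phagocytes, measured 64.7, 60.6 and 56.7 CPM in the untreated pools and 65.9, 72.5 and 58.1 CPM under RUX. As these genes were chosen for their likeness, the coefficients are descriptions.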

How the data were processed

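RNA of sorted cells was turned into libraries with Takara's SMART-Seq mRNA LP kit, per the labels' protocols. The submitters' processing notes name STAR and mm10, without a STAR version. The authors deposited raw counts of read pairs for each gene from featureCounts 2.0.3 over UCSC mm10 exons, per the file headers, with no strand, multi-mapping or overlap option, so by that tool's defaults pairs that map to several places were left out. Another deposited value is each gene's exon length, used for levels per kilobase.

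Columns were matched to pools by library name. Pools held different mice, and the p-values reflect variation among pools, and 3 against 3 pools limit precision. edgeR 4.0.16 (R 4.3.3) kept 13411 genes (filterByExpr), scaled by TMM and tested RUX against untreated by the two-sided quasi-likelihood test, adjusted over all tested genes at 0.05; the test was checked on simulated counts. SE and 95% intervals were computed from each log2 fold change and F statistic. DESeq2 1.42.0 and limma 3.58.1 were alternatives. The 10 members, 7 pathway lists and 8 marker lists were chosen with earlier results of these data known. Named were the members, regulators of their induction, any gene past the threshold and otherwise up to 3 genes per pathway list by smallest unadjusted p, and 5 genes by likeness, though 1 regulator is not reported here. Coordinates are 1-based in mm10 from the deposited table, promoters from RefSeq (GRCm38.p6), and shared windows of 50 bases from GENCODE transcripts, both strands, leaving out genes at overlapping positions. Protein sequences, planned for comparison, were not used here. Irgb10 and Rnf213 among the pathway lists, and Ly6g among the markers, were not found under these symbols. Genes listed under other names were not matched to them.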

Additional observations from a re-analysis of the deposited data

How the results depend on the processing

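No member and no regulator passed the threshold in any of 15 alternatives, and the number of genes called was 0 except without a low-count filter (14 genes, 4 higher and 10 lower) and by limma-voom with quality weights (1 gene, lower); none of the 10 genes was among these. With 1 pool left out the number called ranged from 0 to 0 and the median of the 10 genes from 0.04 to 0.22. With untreated pool 3 and RUX pool 4 both left out, the median was 0.08 with 8 of 10 positive. That setting turned Gbp7 (−0.0023), Irgm2 (−0.0047), Ifngr2 (−0.01) and Irf1 (0.03). Leaving out 1 pool turned Gbp3 (−0.12 to 0.21), Gbp9 (−0.01 to 0.32), Irgm2 (−0.03 to 0.23) and Igtp (−0.07 to 0.08), and likewise Ifngr2, Jak1 and Irf1, in the ranges −0.04 to 0.15, −0.11 to 0.17 and −0.09 to 0.08. Limma-voom turned Jak1 (−0.0046). Irf1 also turned with DESeq2 size factors (0.0034), upper-quartile scaling (0.0034), no filter (0.0019), DESeq2 (0.0035) and quality weights (0.07). Among values of named genes under alternatives 496 kept their direction and 26 did not; the cause was not tested. At least 1 CPM in 3 pools left Gbp6 untested. The order of levels kept its 6 stable pairs with the whole library as base. No paired analysis was possible because the groups share no pool numbers.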
